A study of Mus musculus with 18 samples.

Results

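Adipokines are hormones and secreted proteins first known from fat tissue. The genes described here are 5 that encode adipokines (Cfd, Adipoq, Lep, Retn and Rarres2) and 3 that encode receptors for 2 of them (Lepr, Adipor1 and Adipor2), read in liver RNA on every array probe whose transcript maps to one of these symbols. They number 8 of 21153 named genes on the array, with 12 of 39429 probes, and each of the 12 probes stood well above background in 4 or more of the 18 mice. The 8 genes were chosen from their measured values in these same arrays, so their levels and differences are given as description, without a test.

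The livers came from male C57BL/6 mice fed from 6 weeks of age on a diet of 10% fat (LFD) or 60% fat (HFD). The untreated groups are LFD (n = 4) and HFD (n = 4). The treated groups, LFD MTX50 (n = 5) and HFD MTX50 (n = 5), received 5 rounds of methotrexate at 50 mg/kg into the peritoneum after 10 weeks of diet, and liver was taken 1 week after the last round. All 4 groups share strain and sex, each array holds 1 mouse, and no control injection is named for the untreated mice. Methotrexate is an antifolate that blocks dihydrofolate reductase. A level is the log2 of the processed spot intensity minus the 75th percentile of that array, so that 0 is the 75th percentile, and a difference of 1 is a 2-fold change. Diet was read as HFD vs LFD, and methotrexate as HFD MTX50 vs HFD on the high-fat diet and as LFD MTX50 vs LFD on the low-fat diet.

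Adipsin, or complement factor D, is the protease made from Cfd, and it starts the alternative complement pathway by cleaving factor B bound to C3b. Adiponectin (Adipoq) acts on liver through the membrane receptors AdipoR1 and AdipoR2, leptin (Lep) acts through LepR and the kinase JAK2, and resistin (Retn) is a small cysteine-rich hormone of mouse adipocytes. Chemerin, from Rarres2, is made in large amount by liver as well as by fat, and it attracts leukocytes through CMKLR1.

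The arrays were evenly usable, with 83.8 to 90.6% of probes well above background on each. All 9 hepatocyte markers were above background on every array, with a summed level of 898 to 1430 times the 75th percentile. The arrays lay on 6 slides. All LFD arrays were alone on 1 slide, LFD MTX50 arrays filled 2 others, and only 1 slide carried arrays of both high-fat groups, mice 3 and 4 untreated and mice 1 and 2 treated. Slide and group therefore cannot be told apart for diet and for methotrexate on LFD, and the within-slide difference is given below for HFD MTX50 vs HFD.

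The bases upstream of the start sites of Cfd and Lep are shown because these 2 genes had the largest differences between groups on the brightest probe of each gene. Both windows hold the 250 bases before the start site in the RefSeq annotation of GRCm38.p6, on the + strand, at chr10:79890603-79890852 for Cfd and chr6:29059971-29060220 for Lep, and capitals mark a motif match.
Cfd: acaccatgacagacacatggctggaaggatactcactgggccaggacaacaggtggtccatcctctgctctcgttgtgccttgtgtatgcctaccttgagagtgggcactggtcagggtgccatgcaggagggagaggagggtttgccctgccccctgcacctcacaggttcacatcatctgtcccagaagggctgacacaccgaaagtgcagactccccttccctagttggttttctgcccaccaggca
Lep: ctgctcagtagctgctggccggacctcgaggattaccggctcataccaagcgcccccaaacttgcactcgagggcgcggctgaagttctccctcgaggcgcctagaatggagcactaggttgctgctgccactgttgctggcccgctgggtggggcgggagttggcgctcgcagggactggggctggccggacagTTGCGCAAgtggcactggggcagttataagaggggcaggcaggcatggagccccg
The motifs searched on both strands were the TATA box TATAAA, the CCAAT box CCAAT, the E-box CACGTG and the C/EBP site TTGCNNAA. The Lep window holds the C/EBP site, starting 55 bases before the start site. That motif is in 9.56% of 32851 mouse windows of this length, against 33.8% for the CCAAT box, 12.4% for the TATA box and 6.02% for the E-box. The Cfd window holds none of these letters.

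Cfd differed most. Its level was −4.90, −3.66, −2.28 and −5.11 in the 4 LFD mice and 2.03, 2.55, 1.55 and 1.90 in the 4 HFD mice. In HFD MTX50 it was −5.58, −3.43, −2.56, 0.19 and −5.16, and in LFD MTX50 it was −5.57, −6.19, −5.24, −5.99 and −4.82. All HFD mice lay above every mouse of the other 3 groups, and HFD MTX50 mouse 4 lay nearest to them. The group means were 2.01 ± 0.42 in HFD (SD, n = 4), −3.31 ± 2.31 in HFD MTX50 (SD, n = 5), −3.99 ± 1.31 in LFD (SD, n = 4) and −5.56 ± 0.56 in LFD MTX50 (SD, n = 5). HFD exceeded LFD by 5.99 ± 0.92 (SE of the 4-group model), or 63.8-fold, and HFD MTX50 was below HFD by 39.8-fold, a difference of −5.32 ± 0.87. On the slide that held both HFD groups the difference was −6.23. LFD MTX50 lay below LFD by 2.98-fold (−1.57 ± 0.87), with overlapping mice, and LFD and HFD MTX50 also overlapped. The interval of the LFD MTX50 vs LFD difference was −3.42 to 0.27 (95%), and modelling the background by normexp turned it to 0.70 and brought the HFD MTX50 vs HFD difference to −2.97.

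**Figure D1:**
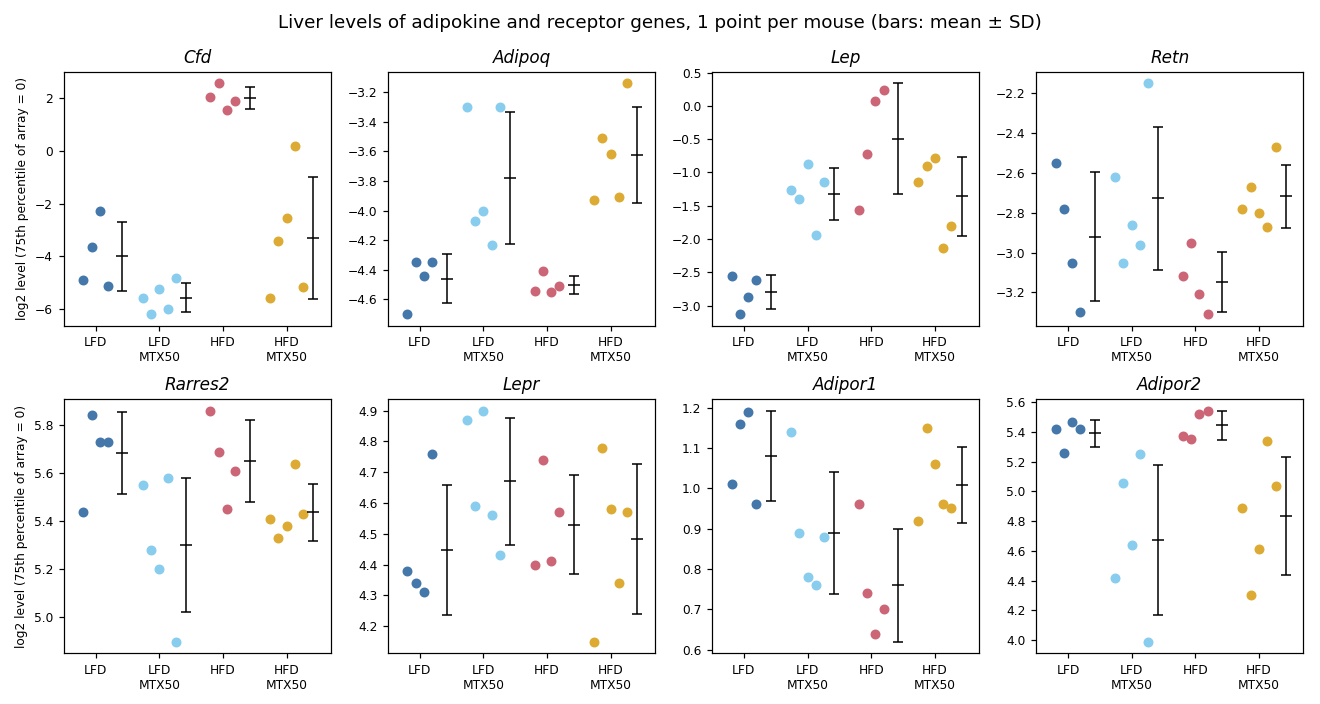
Log2 level of each of the 8 genes on its brightest probe (y axis, 0 is the 75th percentile of the array) in every mouse of the 4 groups (x axis), with the mean ± SD beside the points. The 4 HFD mice stand apart from all others for Cfd, at 1.55 to 2.55, and the y axes differ between panels.

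Markers of adipocytes were read beside Cfd, a gene best known from fat cells. Of 7 defining markers, Acvr1c and Trarg1 (trafficking regulator of GLUT4) were well above background on at most 1 of 18 arrays on any probe, and the other 5 were tested. The summed level of the 7 was 0.663 to 0.848 times the 75th percentile in HFD, against 1.07 to 1.64 in LFD, 1.42 to 2.70 in LFD MTX50 and 1.20 to 1.75 in HFD MTX50. Adrb3, the β3-adrenergic receptor, made up 59.1 to 87.6% of this sum. Without Adrb3 the other 6 markers summed to 0.198 to 0.285 in HFD and 0.198 to 0.233 in HFD MTX50, groups that overlapped. The sum was 0.303 to 0.334 in LFD and 0.367 to 0.927 in LFD MTX50. This reading was chosen after its values were seen. Slc2a4 was the brightest of these 6 in LFD, at −2.82 to −2.41, against −4.88 to −4.09 in HFD. In LFD MTX50 it ranged from −4.04 to −0.43. The medians of Plin1, Lipe and Lgals12 were higher in HFD than in LFD. The lower sum in HFD was therefore not a direction shared by the markers. Of the 5 defining markers that were tested in HFD vs LFD, Plin1 (perilipin 1, a droplet coat protein of adipocytes) rose by 0.64 ± 0.14 (adjusted p = 0.0070), Adrb3 fell by 1.01 ± 0.23 (adjusted p = 0.0070) and Slc2a4 (the GLUT4 glucose transporter) fell by 1.72 ± 0.53 (adjusted p = 0.026). Lipe (hormone-sensitive lipase) differed by 0.15 ± 0.14 and Lgals12 (galectin 12 of lipid droplets) by 0.65 ± 0.31, neither past the test. In HFD MTX50 vs HFD, Adrb3 rose by 1.35 ± 0.21 (adjusted p = 0.0064), and Plin1 at −0.41 ± 0.14, Lipe at −0.22 ± 0.13, Lgals12 at −0.07 ± 0.30 and Slc2a4 at −0.10 ± 0.51 did not pass. In LFD MTX50 vs LFD, Plin1, Lipe, Lgals12 and Adrb3 rose by 0.66, 0.42, 1.08 and 0.60. Under quantile normalization none of these 4 rises passed, and Plin1 in HFD vs LFD was 0.29 (adjusted p = 0.069). The wider list of 15 adipocyte markers summed to 79.5 to 92.2 in HFD and 80.5 to 86.0 in LFD, against 12.5 to 64.4 in HFD MTX50 and 12 to 39.5 in LFD MTX50. Car3 (carbonic anhydrase 3, abundant in liver too) and Thrsp (a lipogenic protein of liver and fat) made up 52.7 to 95.7% of that sum, and Car3 fell by 3.15 ± 0.72 in LFD MTX50 vs LFD (adjusted p = 0.0067). Without these 2 genes the list summed to 4.4 to 7.92 in HFD, 3.71 to 4.25 in LFD, 4.24 to 5.90 in HFD MTX50 and 4.44 to 6.33 in LFD MTX50. Of all genes, 18% rose and 10.4% fell with diet at an adjusted p below 0.05 in limma. The shares were 4.83% and 6.13% with methotrexate on HFD and 17.6% and 10.5% on LFD. Gene by gene, of 13 tested markers 4 rose and 2 fell with diet (median 0.32, beside 0.08 for all genes), 1 rose and 2 fell with methotrexate on HFD (median −0.41, beside −0.04), and 4 rose and 1 fell on LFD (median 0.49, beside 0.105). Among those, Pparg, the master regulator of fat cells, rose by 0.72 ± 0.14 with diet (adjusted p = 0.0043) and fell by 0.70 ± 0.13 with methotrexate on HFD (adjusted p = 0.0090). Plin4, another droplet coat protein, rose by 1.23 ± 0.38 with diet (adjusted p = 0.026) and differed by −0.41 ± 0.36 with methotrexate on HFD. Both were named after their values were seen. The adipocyte markers thus had no common direction in HFD.

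Cidea, a lipid droplet protein of brown fat that is also found in fatty liver, moved with Cfd. Its level was −1.19, 1.13, 2.74 and 2.17 in HFD, between −3.47 and −1.95 in LFD, between −3.75 and −2.96 in LFD MTX50 and between −2.90 and −0.09 in HFD MTX50. HFD mouse 1, the lowest of its group for Cidea, was the second highest for Cfd. Cidea rose by 4.16 ± 0.70 in HFD vs LFD (adjusted p = 0.0029) and fell by 3.36 ± 0.67 with methotrexate on HFD (adjusted p = 0.0098), and its relative Cidec, which fuses droplets, rose by 1.32 ± 0.22 and fell by 0.95 ± 0.21 (adjusted p = 0.0027 and 0.014). The adjusted p of these genes and of the adipocyte markers come from the model without slide. With slide as a random block far fewer genes of the array were called for diet. With slide as a fixed block no gene was called in HFD MTX50 vs HFD. Of the 6 tested brown adipocyte markers 3 rose and 0 fell with diet, 0 rose and 3 fell with methotrexate on HFD, and Ucp1, the uncoupling protein that defines brown fat, was above background on no LFD array and on 1 HFD array. The counts are read beside the shares of all genes given above. The part of fat cells in the liver pieces in the Cfd values was not tested. In pieces of whole tissue, fewer cells of a type and less RNA per cell cannot be told apart.

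**Figure D2:**
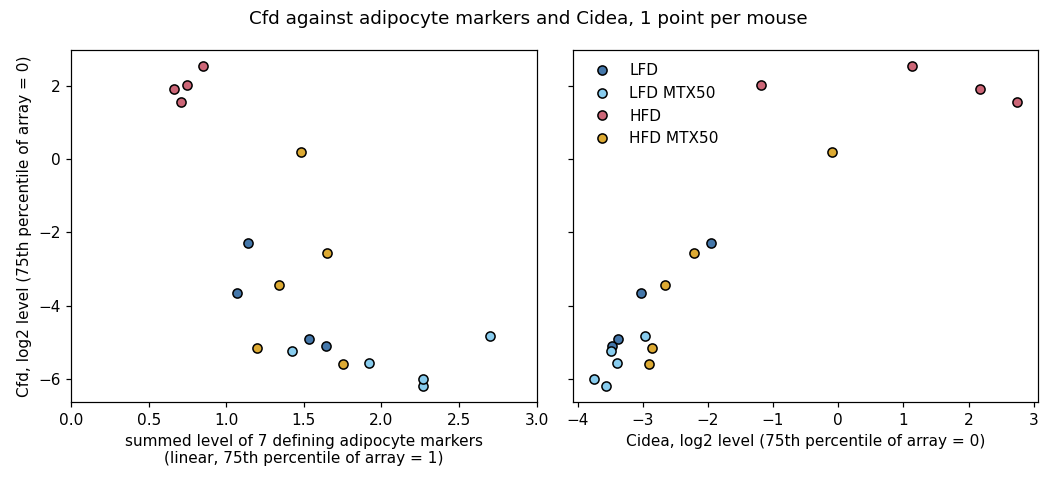
Log2 level of Cfd in each of the 18 mice (y axis) against the summed linear level of 7 defining adipocyte markers (left x axis) and against the log2 level of Cidea (right x axis). The 4 HFD mice have the highest Cfd, with marker sums of 0.663 to 0.848, of which Adrb3 alone gives 59.9 to 73.5%.

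Adiponectin is the most abundant hormone of fat cells, and its gene gave a dim signal in these livers, yet well above background on all 18 arrays. Adipoq was at −4.70, −4.35, −4.44 and −4.35 in LFD and at −4.54, −4.41, −4.55 and −4.51 in HFD. It was at −3.30, −4.07, −4.00, −4.23 and −3.30 in LFD MTX50 and at −3.93, −3.51, −3.62, −3.91 and −3.14 in HFD MTX50. Every treated mouse lay above every untreated mouse, on both diets. The means were −4.46 ± 0.17 in LFD, −4.50 ± 0.06 in HFD, −3.78 ± 0.45 in LFD MTX50 and −3.62 ± 0.33 in HFD MTX50 (SD). The treated groups were 1.84-fold higher than HFD (0.88 ± 0.20, and 0.80 within the shared slide) and 1.60-fold higher than LFD (0.68 ± 0.20). HFD differed from LFD by −0.04 ± 0.21 (95% interval −0.48 to 0.40). Modelling the background by normexp gave 0.94 for diet, 1.32 for methotrexate on HFD and 1.54 for methotrexate on LFD, whereas quantile normalization gave −0.34, 0.98 and 0.39.

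Leptin is the satiety hormone of fat tissue. Lep, read on 10 spots per array, was lowest in LFD at −2.56, −3.13, −2.87 and −2.62. HFD was at −1.57, −0.73, 0.08 and 0.24, LFD MTX50 at −1.27, −1.40, −0.88, −1.94 and −1.15, and HFD MTX50 at −1.15, −0.91, −0.79, −2.14 and −1.81. Every LFD mouse lay below all mice of the other 3 groups, while those 3 overlapped with each other. HFD exceeded LFD by 2.30 ± 0.36, or 4.92-fold, and LFD MTX50 exceeded LFD by 1.46 ± 0.34, or 2.76-fold. In HFD MTX50 vs HFD the difference was −0.87 ± 0.34, −1.19 within the shared slide, and −0.16 under normexp. Methotrexate thus came with a higher Lep level on the low-fat diet and a lower mean on the high-fat diet, and the difference between these 2 treatment effects was −2.33 ± 0.49. The same contrast was −3.74 ± 1.23 for Cfd, for which the mean was lower with methotrexate on both diets, and 0.44 ± 0.14 for Adipor1.

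Resistin was read on 2 probes of the same transcript. On the brighter probe Retn ranged from −3.30 to −2.55 in LFD, −3.05 to −2.15 in LFD MTX50, −3.31 to −2.95 in HFD and −2.87 to −2.47 in HFD MTX50. All HFD MTX50 mice were above all HFD mice on this probe (0.43 ± 0.18, 0.54 within the shared slide), and the other groups overlapped. On the second probe the HFD MTX50 vs HFD difference was −0.07 ± 0.15 and HFD vs LFD was 0.37 ± 0.16, against −0.23 ± 0.18 on the brighter probe. The probes had a correlation of −0.45 over 18 arrays, so they gave no common direction for Retn.

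Chemerin is a known product of liver as well as of fat. Rarres2 was bright in all mice, at 5.44, 5.84, 5.73 and 5.73 in LFD and 5.86, 5.69, 5.45 and 5.61 in HFD. It was 5.55, 5.28, 5.20, 5.58 and 4.90 in LFD MTX50 and 5.41, 5.33, 5.38, 5.64 and 5.43 in HFD MTX50. The treated groups reached lower but overlapped with the untreated ones. LFD MTX50 was below LFD by 1.30-fold (−0.38 ± 0.13), HFD MTX50 differed from HFD by −0.21 ± 0.13 (95% interval −0.50 to 0.07), and HFD differed from LFD by −0.03 ± 0.14 (−0.33 to 0.27).

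The adiponectin receptors differed from one another in where they were low. Adipor2, the receptor tied to PPARα in liver, was 5.42, 5.26, 5.47 and 5.42 in LFD and 5.37, 5.35, 5.52 and 5.54 in HFD. It was 4.42, 5.06, 4.64, 5.25 and 3.99 in LFD MTX50 and 4.89, 4.30, 4.61, 5.34 and 5.04 in HFD MTX50. All treated mice lay below all untreated mice of their diet, by a narrow margin for LFD MTX50 mouse 4 and HFD MTX50 mouse 4, and the treated groups had the wider spread (SD 0.50 and 0.40, against 0.09 and 0.10). The differences were −0.72 ± 0.22 (1.65-fold) on LFD and −0.61 ± 0.22 (1.53-fold) on HFD, or −0.94 within the shared slide. Diet alone gave 0.06 ± 0.23.

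Adipor1, the receptor tied to AMP-activated kinase, was 1.01, 1.16, 1.19 and 0.96 in LFD and 0.96, 0.74, 0.64 and 0.70 in HFD. It was 1.14, 0.89, 0.78, 0.76 and 0.88 in LFD MTX50 and 0.92, 1.15, 1.06, 0.96 and 0.95 in HFD MTX50. HFD was the lowest group, and its highest mouse met the lowest LFD mouse at 0.96. The differences were small, at −0.32 ± 0.10 for diet, 0.25 ± 0.10 for methotrexate on HFD (0.37 within the shared slide) and −0.19 ± 0.10 on LFD.

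The leptin receptor is made as a long signalling form and as short and soluble forms, and its 4 probes did not move together. The brightest, A_55_P2177910 (NM_010704), ranged only from 4.15 to 4.90 over all 18 mice, and its differences were 0.08 ± 0.15 for diet, −0.05 ± 0.14 for methotrexate on HFD and 0.22 ± 0.14 on LFD. A second probe of the same transcript, A_55_P2177911, was −3.02, −3.13, −8.98 and −3.42 in LFD, where mouse 3 was not well above background, and between −5.14 and −4.09 in HFD. It was between −3.41 and −2.64 in LFD MTX50 and between −4.89 and −3.48 in HFD MTX50. Apart from LFD mouse 3, its LFD and LFD MTX50 values thus lay above all HFD values.

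Probe A_55_P2192662, listed for NM_001122899, gave the largest Lepr difference. It was −2.77, −2.55, −3.48 and −3.59 in LFD and −6.14, −5.38, −5.19 and −6.34 in HFD, with HFD mouse 4 not well above background. HFD was below LFD by 6.35-fold (−2.67 ± 0.49), with no overlap. In HFD MTX50 it was −3.75, −4.19, −6.10, −5.72 and −5.75, so that mice 1 and 2 lay above all HFD mice and the other mice did not. The difference from HFD was 0.66 ± 0.47, and 1.80 within the shared slide, which held those mice. LFD MTX50 differed from LFD by 0.21 ± 0.47. This probe and A_55_P2177911 had a correlation of 0.97 over the 16 arrays on which both were above background, while every other pair of Lepr probes lay between 0.02 and 0.36.

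The last Lepr probe, A_66_P130517 (NM_146146), was lowest in LFD, at −4.90, −5.22, −5.25 and −5.33, and highest in LFD MTX50, at −4.26, −4.40, −3.99, −4.45 and −4.27, with no overlap (0.90 ± 0.18). HFD exceeded LFD by 0.55 ± 0.19 and HFD MTX50 differed from HFD by −0.23 ± 0.18. HFD thus lay below LFD on A_55_P2192662 and, apart from LFD mouse 3, on A_55_P2177911. Its mean was above that of LFD on A_66_P130517, with overlapping mice, and differed by less than the error on the brightest probe. The mean of the 4 probes gave −0.49 in HFD vs LFD. That mean keeps the dim spot of LFD mouse 3, with which A_55_P2177911 differed by 0.09 ± 0.91. Which probes read which form of the receptor was not tested.

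**Figure D3:**
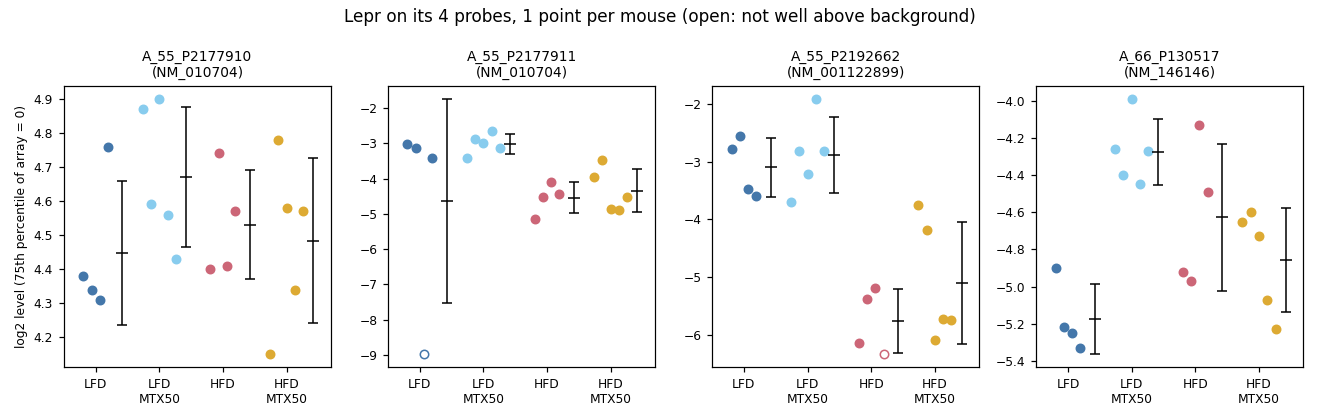
Log2 level of Lepr on each of its 4 probes (y axes differ, 0 is the 75th percentile of the array) in every mouse of the 4 groups, with mean ± SD. On A_55_P2192662 the 4 HFD mice lie between −6.34 and −5.19, below all LFD mice, whereas on the brightest probe all 18 mice lie between 4.15 and 4.90.

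The calls of the 3 comparisons are set side by side here, and some members were called in more than 1 of them. In HFD vs LFD, 2 of 8 genes were called higher on their brightest probe (Cfd and Lep), where a call is an adjusted p below 0.05 in the model over all probes, and 1 was called lower (Adipor1). Over all 19597 tested genes the share called was 18% higher and 10.4% lower. In HFD MTX50 vs HFD, 1 gene was called higher (Adipoq) and 1 lower (Cfd), where 4.83% of all genes were called higher and 6.13% lower. In LFD MTX50 vs LFD, 2 were called higher (Adipoq and Lep) and 2 lower (Adipor2 and Rarres2), beside 17.6% and 10.5% of all genes. For the difference of treatment effects 1 was called higher (Adipor1) and 2 lower (Cfd and Lep), beside 8.66% and 18.1%. Under quantile normalization Adipoq, Adipor2 and Rarres2 on LFD and Adipor1 with diet were no longer called, at 0.39, −0.63, −0.37 and −0.29, and Adipor2 on HFD was called, at −0.84. In HFD MTX50 vs HFD no gene of the array, and so no member, was called under normexp or with slide as a fixed block. The same held with only the compared groups in the fit. Since the genes were picked for such values, nothing is read from these counts. The diet comparison and methotrexate on HFD share the HFD arrays, so that opposite signs there, as for Cfd, are not independent.

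**Figure D4:**
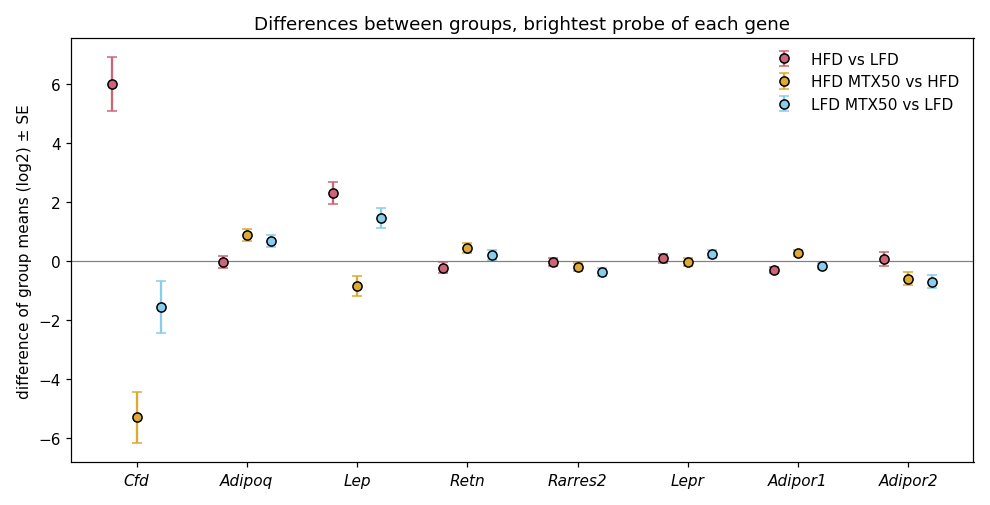
Difference of group means on the log2 scale (y axis, bars ± SE of the model) for the 8 genes (x axis) for diet and for methotrexate on each diet. Each gene is drawn on its brightest probe. Cfd spans 5.99 to −5.32, Lep follows, and the other 6 genes stay within 1 log2 unit of 0 on that probe.

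The genes whose level followed each member most closely over the 18 arrays were found by correlation over 19400 other genes, as a description in which the group differences and slides enter. For Cfd they included Aldh3a2 (fatty aldehyde dehydrogenase, r = 0.943) and Tpm2 (a tropomyosin, r = 0.929). For Lep they were Fbxw13 (r = 0.984), Speer4a (r = 0.967) and 4931440P22Rik (r = 0.966). With group means removed these still gave r = 0.96, 0.9 and 0.9 with Lep. Fbxw13 differed by 2.42 with diet, −0.90 with methotrexate on HFD and 1.75 on LFD, against 2.30, −0.87 and 1.46 for Lep. Whether the signal of the Lep probe comes from leptin transcript alone was not tested. For the brightest Lepr probe the nearest gene was Krtap19-4, a keratin-associated protein of hair (r = 0.930). Adipoq lay nearest to AI429214 (r = 0.920) and Tmem176b (r = 0.911), Retn to Llph (r = 0.872), Rarres2 to Hibadh, a valine-degrading dehydrogenase (r = 0.882), Adipor1 to P3h1, a collagen prolyl hydroxylase (r = 0.864), and Adipor2 to H2-Q7 (r = 0.942) and Fads2, the Δ6 fatty acid desaturase (r = 0.928). Between members, the highest correlation was 0.73 (Rarres2 and Adipor2) and the lowest −0.82 (Adipoq and Adipor2).

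Partners, receptors and relatives of the members were read from 9 gene lists with 120 genes, of which 117 were tested. With diet 12 rose and 16 fell, with methotrexate on HFD 17 rose and 7 fell, and with methotrexate on LFD 20 rose and 13 fell, by limma with adjusted p below 0.05. Of all genes, 18%, 4.83% and 17.6% were called higher and 10.4%, 6.13% and 10.5% lower in these comparisons. The counts of each list below are read beside these shares. The median differences of the 117 genes were 0.00, 0.08 and 0.16, beside 0.08, −0.04 and 0.105 for all genes. The partner calls depended on slide and background. With slide as a random block 0 genes passed for diet (30 at an unadjusted p below 0.05), 20 for methotrexate on HFD and 3 on LFD, and normexp left 0, 0 and 4 (19, 14 and 32 unadjusted). With slide as a fixed block in HFD MTX50 vs HFD, or with only the HFD and HFD MTX50 arrays in the fit, 0 partner genes passed (32 and 43 unadjusted). The verbs below describe the model without slide.

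The list drawn up for the alternative complement pathway held 21 tested genes and was wider than that pathway. It also held terminal components such as C6 and C8b, the receptors of C3a and C5a, and Masp1 and Masp2 of the lectin pathway. Of the 21 genes, 8 rose and 1 fell with methotrexate on HFD (median 0.46), and 5 rose and 3 fell on LFD (median 0.32). With diet 2 rose and 4 fell (median −0.28). C8b, a chain of the membrane attack complex, fell by 1.15 ± 0.29 in HFD vs LFD (adjusted p = 0.011) and rose by 1.03 ± 0.27 in HFD MTX50 vs HFD (adjusted p = 0.028). Hc, the mouse C5 gene, rose by 0.79 ± 0.20 in HFD MTX50 vs HFD (adjusted p = 0.022). C6 fell by 1.09 ± 0.27 in LFD MTX50 vs LFD (adjusted p = 0.010), and C5ar1, the C5a receptor of myeloid cells, rose by 0.82 ± 0.28 (adjusted p = 0.036). The substrate of adipsin, Cfb, and its partner C3, both named after their values were seen, rose with methotrexate on both diets. Cfb rose by 0.36 ± 0.10 on HFD and 0.44 ± 0.10 on LFD (adjusted p = 0.026 and 0.0053), and C3 by 0.59 ± 0.14 and 0.51 ± 0.14 (adjusted p = 0.018 and 0.014). Under quantile normalization Cfb on HFD was 0.10 and C5ar1 on LFD 0.38, both no longer past the test. Macrophage markers summed to 29.4 to 53.0 in HFD and 43.6 to 69.9 in HFD MTX50, and neutrophil markers to 48.3 to 68.4 and 45.6 to 126. Gene by gene, 0 of 11 macrophage and 0 of 9 neutrophil markers were called in HFD MTX50 vs HFD. Their medians were 0.49 and 1.03, beside −0.04 for all genes, and the lowest neutrophil marker was at 0.31. On the low-fat diet both sums were lower with methotrexate and did not overlap, at 40.8 to 56.7 in LFD and 27.2 to 35.5 in LFD MTX50 for macrophages and 69.1 to 82.6 and 51.3 to 58.5 for neutrophils. Gene by gene, 2 of 11 macrophage markers rose and 2 fell there (median 0.33). Of 9 neutrophil markers 3 rose and 1 fell (median 1.09, beside 0.105 for all genes). The sums are linear and weigh the brightest markers most, so their fall was not a direction shared by the markers. The part of macrophages and neutrophils in the complement changes was not tested.

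Of 19 tested genes of adiponectin signalling 0 rose and 4 fell with diet (median −0.19), 2 rose and 1 fell with methotrexate on HFD (median −0.03), and 1 rose and 2 fell on LFD (median 0.02). Ppargc1a, the coactivator of mitochondrial genes, fell by 1.20 ± 0.25 with the high-fat diet (adjusted p = 0.0053) and rose by 0.76 ± 0.24 in HFD MTX50 vs HFD (adjusted p = 0.048). Both acetyl-CoA carboxylases, which AMP-activated kinase inhibits, were read. Acaca fell by 1.29 ± 0.37 in HFD vs LFD (adjusted p = 0.019). Acacb fell by 1.74 ± 0.54 in LFD MTX50 vs LFD (adjusted p = 0.026) and differed by −1.18 ± 0.57 with diet and −1.43 ± 0.54 with methotrexate on HFD, neither past the test. Cdh13, or T-cadherin, which binds adiponectin multimers, fell by 0.63 ± 0.15 in HFD MTX50 vs HFD (adjusted p = 0.019). The 3 genes of adiponectin secretion passed in none of the comparisons.

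Adipor1 and Adipor2 belong to the PAQR family, of which 9 other genes were tested. Paqr7, a membrane progesterone receptor, rose by 0.86 ± 0.27 in HFD vs LFD (adjusted p = 0.026) and fell with methotrexate on both diets, by 1.23 ± 0.25 on HFD (adjusted p = 0.011) and 1.39 ± 0.25 on LFD (adjusted p = 0.0024). Paqr5 rose by 0.82 ± 0.18 with the high-fat diet (adjusted p = 0.0070), and Paqr9 and Mmd fell by 1.13 ± 0.26 and 0.63 ± 0.18 in LFD MTX50 vs LFD (adjusted p = 0.0065 and 0.020). In all, 2 rose and 0 fell, 0 rose and 2 fell, and 1 rose and 3 fell in the comparisons in the order above.

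Of 24 tested genes of leptin signalling 1 rose and 5 fell with diet (median −0.22), 5 rose and 1 fell with methotrexate on HFD (median 0.20), and 5 rose and 3 fell on LFD (median 0.18). Among the feedback inhibitors of cytokine receptors, Socs3 rose by 1.84 ± 0.34 on HFD and 1.42 ± 0.34 on LFD (adjusted p = 0.0085 and 0.0089), Socs2 by 0.94 ± 0.29 and 2.68 ± 0.29 (adjusted p = 0.046 and 0.00014), and Cish by 2.33 ± 0.79 on LFD (adjusted p = 0.036, and 0.0503 under quantile normalization at 2.30). Stat3, named after its values were seen, rose by 0.95 ± 0.13 on LFD (adjusted p = 0.00051). These genes answer other cytokines and growth hormone as well as leptin. Igfbp2, an insulin-like growth factor binding protein that leptin raises in liver, fell by 2.13 ± 0.44 in HFD vs LFD (adjusted p = 0.0054) and rose by 1.69 ± 0.42 in HFD MTX50 vs HFD (adjusted p = 0.023). Leprot, which shares a promoter region with Lepr, differed by −0.34 ± 0.15, 0.30 ± 0.14 and −0.02 ± 0.14 and did not pass.

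Of 5 tested receptors for chemerin and resistin 1 rose with diet, 0 with methotrexate on HFD and 1 on LFD, and 0 fell. Gpr1, a chemerin receptor, rose by 0.48 ± 0.15 in HFD vs LFD (adjusted p = 0.027), and Cap1, which binds resistin, rose by 0.32 ± 0.09 in LFD MTX50 vs LFD (adjusted p = 0.019), while quantile normalization gave 0.13 for Gpr1 (adjusted p = 0.49) and scaling to the median ended the call of Cap1 (0.22, adjusted p = 0.083). Cmklr1 differed by 0.49 ± 0.27, −0.65 ± 0.25 and 0.51 ± 0.25, Ccrl2 by 0.46 ± 0.19, −0.47 ± 0.18 and 0.20 ± 0.18, and Tlr4 by −0.04 ± 0.19, 0.10 ± 0.18 and −0.19 ± 0.18 in the order of comparisons above, none past the test. The 3 tested relatives of resistin passed in none of the comparisons.

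Among 8 tested C1q and TNF related proteins, which resemble adiponectin, C1qtnf5 rose by 0.64 ± 0.15 in HFD vs LFD and fell by 0.51 ± 0.14 with methotrexate on HFD (adjusted p = 0.0085 and 0.035). C1qtnf2 rose by 0.66 ± 0.18 with the high-fat diet and by 0.55 ± 0.17 with methotrexate on LFD (adjusted p = 0.016 and 0.026), C1qtnf7 fell by 0.36 ± 0.09 with methotrexate on HFD (adjusted p = 0.025) and C1qtnf1 fell by 0.73 ± 0.23 in LFD MTX50 vs LFD (adjusted p = 0.030). Under quantile normalization C1qtnf2 on LFD, C1qtnf7 and C1qtnf1 did not pass (0.33, −0.29 and −0.61). Of 25 tested other adipokines 4 rose and 3 fell, 2 rose and 0 fell, and 6 rose and 1 fell. Fndc5, the irisin precursor, rose by 1.27 ± 0.27 with diet and 0.85 ± 0.26 with methotrexate on LFD (adjusted p = 0.0060 and 0.023), Agt (angiotensinogen) by 1.00 ± 0.20 in LFD MTX50 vs LFD (adjusted p = 0.0041), and Grn (progranulin) by 0.74 ± 0.17 with methotrexate on HFD and 0.87 ± 0.17 on LFD (adjusted p = 0.016 and 0.0033). Grem1, a BMP antagonist, was not well above background on any LFD array. It was at least 1.80-fold higher in HFD (measured means −5.71 and −7.71, adjusted p = 0.0082) and at least 1.15-fold higher in LFD MTX50, where 2 of 5 arrays measured it (measured means −6.36 and −7.71, adjusted p = 0.032). Quantile normalization ended the calls of Fndc5 and Grem1 in LFD MTX50 vs LFD, at 0.63 and 0.89.

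**Figure D5:**
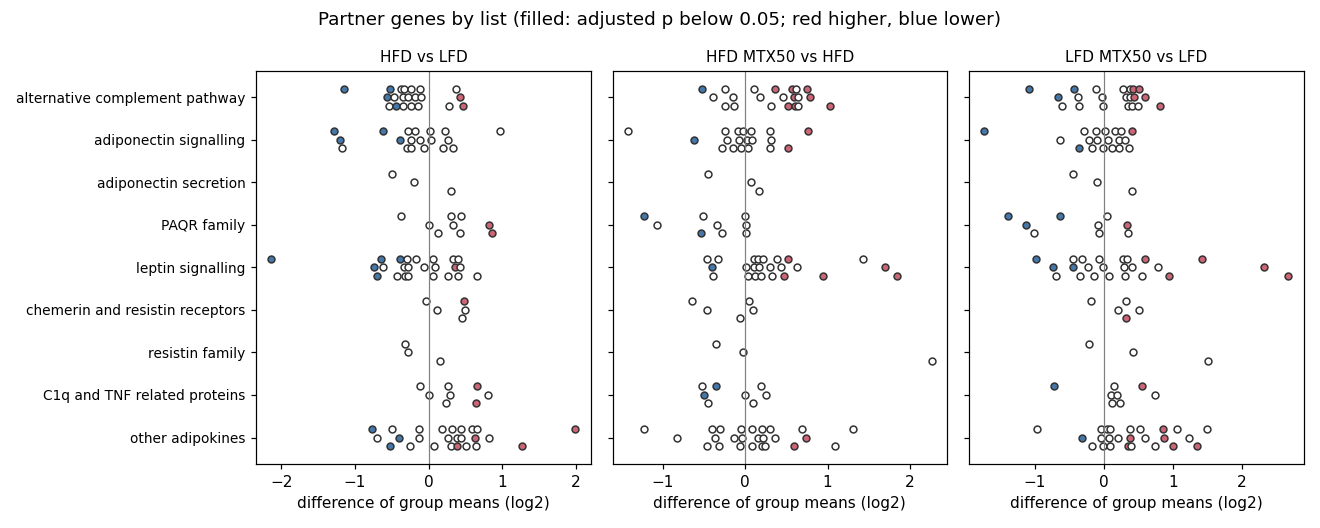
Difference of group means on the log2 scale (x axis) of each tested partner gene, by list (rows) and comparison (panels), with 1 point per gene and filled points where the adjusted p was below 0.05. In the complement row 8 filled points lie right of 0 and 1 left of it in HFD MTX50 vs HFD, and the leptin signalling row reaches 2.68 in LFD MTX50 vs LFD (Grem1 is drawn at the difference of its measured means).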

How the data were processed

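Liver RNA of 18 mice was hybridised to 1-colour Agilent mouse arrays, 1 array per mouse. The deposited scanner files, written by Agilent Feature Extraction 10.7.3.1 per the file headers, hold the spot intensity after background subtraction, which the authors did not normalize between arrays. The normalization used later by the authors is not given in the sources used here. Each intensity was put on the log2 scale and the 75th percentile of its array subtracted. Control spots and outlier spots were left out and spots of a probe averaged. Of 39429 probes, 35735 were well above background on at least 4 of 18 arrays, and 0 spots were saturated.

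Differences, SE and adjusted p came from limma 3.58.1 in R 4.3.3 (lmFit and eBayes over the 4 groups, Benjamini-Hochberg over all kept probes), with a gene read on its brightest kept probe. At least-fold values replace a fold where a group was not well above background. For normexp (offset 50) the median spot and background intensities were used, since the scanner files here list no mean signal. Probes were named through RefSeq accessions (GRCm38.p6), and promoter windows came from the same annotation, with 7 of 8 genes matched. The fit was tested on simulated data.

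All members and lists were chosen with earlier results of these data known. The genes named were the 8 members, at most 4 called genes per list by size of difference, the defining adipocyte markers, receptors of the ligands, Leprot and the 3 genes nearest to each member by correlation, of which some are not reported here. The number of mice limits the precision, and nothing in the labels gives cages or litters.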

Additional observations from a re-analysis of the deposited data

Results flagged for a closer look

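Among 48 groups of member values searched, 3 held a mouse far from the rest, where chance gives about 1 in 20. LFD mouse 4 read 4.76 on Lepr probe A_55_P2177910, with the next mouse at 4.38. LFD mouse 3 read −8.98 on Lepr probe A_55_P2177911, with the next at −3.42, and this spot was not well above background. HFD MTX50 mouse 2 read −3.71 on Retn probe A_55_P2428514, with the next at −3.29.

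The treatment effect differed between the diets, high-fat minus low-fat, for Cfd (−3.74), Lep (−2.33) and Adipor1 (0.44), which were chosen from such values. Among the other named genes it was called by limma for C8b (1.41), Igfbp2 (2.38) and C1qtnf1 (0.98) upward. Downward it was called for Socs2 (−1.74), Stat3 (−0.62), Paqr5 (−0.86), Cmklr1 (−1.16), C1qtnf2 (−1.08), C1qtnf5 (−0.66), C1qtnf7 (−0.46), Fndc5 (−1.17), Agt (−0.81) and Grem1 (−1.75), which was not well above background in LFD. Of 13 tested adipocyte markers 5 were called downward, 0 upward and 8 not called. Of 6 brown adipocyte markers the counts were 3, 0 and 3, beside 18.1% of all genes called downward and 8.66% upward. Those called downward included Cidea (−2.88), Cidec (−1.44), Plin1 (−1.07), Lgals12 (−1.16), Lipe (−0.65), Zic1 (−0.97) and Dio2 (−0.62). Adrb3 (0.75) and Car3 (1.24) lay the other way and were not called. Slide and diet cannot be told apart in these values.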

How the results depend on the processing

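Of the recomputed member differences 252 stayed within 1 SD of the reported value and 20 moved, and all 432 that left out a mouse stayed within it. The 432 count each of the 18 mice for every difference. Leaving out a mouse of a group that is not compared cannot change a difference, so many of the 432 could not move. The SD between replicates was 1.42 for Cfd, the largest of the members. The calls over all genes were 5555 for diet (HFD vs LFD), 2148 for methotrexate on HFD, 5503 for methotrexate on LFD and 5243 for the difference of treatment effects, and the partner genes called were 28, 24 and 33. Normexp background gave 2, 0, 339 and 0 genes (2968, 1071, 4515 and 1353 at an unadjusted p below 0.05 in limma) and 0, 0 and 4 partner genes. Its median SD among the dimmest probes was 1.35, against 0.391. With slide as a random block 380 genes and 0 partner genes were called for diet, 340 and 3 for methotrexate on LFD, and 1249 genes for the difference of treatment effects. With slide as a fixed block 0 genes (3945 unadjusted) and 0 partner genes were called in HFD MTX50 vs HFD. A fit of only the groups compared gave 54 partner genes in HFD vs LFD, and 0 genes (4952 unadjusted) and 0 partner genes in HFD MTX50 vs HFD. Quantile normalization gave 3668 genes in LFD MTX50 vs LFD and 3332 for the difference of treatment effects. Requiring a 2-fold change left 560, 191, 930 and 1556 genes and 6, 4 and 9 partner genes. The cause of these changes was not tested.

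Scaling moved the split of calls. Higher calls made up 63.4% for diet, 44% for methotrexate on HFD, 62.7% on LFD and 32.4% for the difference of treatment effects, against 47.4, 44.5, 45.3 and 45.3% under quantile normalization and 45.5, 53.2, 44.4 and 51.3% with the median of probes above background on every array. The median of all genes in LFD MTX50 vs LFD was 0.105, and 0.005 with that median. Of the partner genes, 42.9, 70.8 and 60.6% of calls were higher, against 30.8, 60.9 and 51.9% and then 25.8, 70.4 and 48.3%.

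The mouse numbers did not pair the arrays, since 25 same-numbered pairs correlated between −0.31 and 0.25 and 5 of 18 arrays lay closest to their own number. With the replicate block 1013 genes and 12 partner genes were called in HFD MTX50 vs HFD, and the other counts stayed within 1.5 times. Leaving out 1 mouse gave 2244 (without HFD mouse 3; 2556 without HFD mouse 4, 3317 without LFD mouse 2 and 3593 without LFD mouse 4) to 6281 genes in HFD vs LFD and 282 (without HFD mouse 4; 300 without mouse 3 and 1091 without mouse 2 and 1100 without HFD MTX50 mouse 5) to 3034 in HFD MTX50 vs HFD. It gave 3187 (without LFD mouse 2; 3591 without LFD mouse 3 and 3604 without LFD MTX50 mouse 3) to 6214 in LFD MTX50 vs LFD and 3007 (without HFD mouse 3; 3120 without mouse 4) to 6203 for the difference of treatment effects. Partner genes ranged from 13 to 38, 5 to 32 (both lowest without HFD mouse 3 or 4) and 17 (without LFD mouse 2; 19 without LFD mouse 3, 21 without LFD mouse 1 or LFD MTX50 mouse 3) to 41, with 18 for diet without LFD mouse 2 and 12 for methotrexate on HFD without HFD mouse 2.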
